A study of Homo sapiens with 4 samples.

Results

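The genes described here encode the subunits of the proteasome and its dedicated activators, inhibitor and assembly chaperones, taken as every gene on the Affymetrix Human Genome U133 Plus 2.0 array whose symbol is PSMA, PSMB, PSMC, PSMD, PSME, PSMF or PSMG followed by a number. They came to 42 of the 19775 genes on the table, each represented by its brightest probe set. RNA was measured on 4 arrays, 1 per group. All came from U937, an established human cell line with monocyte-like features, derived from a lymphoma. The groups were cells given the combination of Sonazoid at 0.05% and ultrasound at 0.3 W/cm2 for 1 min, cells given the ultrasound only, cells given the Sonazoid only, and untreated control cells. Sonazoid is an ultrasound contrast agent, a suspension of microbubbles filled with gas. All 3 treated cultures were incubated for 3 h before RNA extraction, and no source used here states the corresponding time for control. No group had a replicate array, so no difference below has a replicate check, no p-value is printed, and the number of arrays limits the precision.

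The proteasome is the large protease that degrades proteins tagged with ubiquitin. Its 20S core is a barrel of alpha rings, which gate the entrance, and beta rings, which hold the cutting sites, and a 19S cap made of a base with ATPase motors and a lid recognises, unfolds and feeds in the substrate. The PA28 and PA200 activators can take the place of the cap, and interferon-induced beta subunits exchange for the constitutive ones to form the immunoproteasome, which blood cells of the monocyte line often carry and which favours peptides for antigen presentation. When proteasome activity is short, human cells raise most subunit genes together through the transcription factor NFE2L1, which binds antioxidant response elements.

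Signals are probe set intensities scaled to a common array mean, and the floor, the median of all scaled values, was 23.8. Of the 48 RefSeq genes that fit the rule of symbols, 41 were measured, that is, above the floor on at least 1 array, and all 41 lay above it on all 4. PSMA8, an alpha subunit known from testis, was below the floor on all 4 arrays, with signals of 14.4 in the combination, 14.8 with ultrasound only, 7.91 with Sonazoid only and 14.3 in control. PSMA6 and PSME2 lay on probe sets annotated with several genes and 4 further genes (PSMB11, PSMC5, PSMD7 and PSMD13) were not analysed here. A probe set's signal depends on its probes, so signals are compared between arrays and not between genes.

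The cells' identity and the arrays were checked once. Of 13 myeloid lineage markers on the table, 10 or 11 were above the floor on each array, among them LYZ at 5319 to 5863 and ITGB2 at 2773 to 3266, while MPO was above it only with Sonazoid only, at 28.6. The summed myeloid signal was between 34973 and 42739. Of the markers of other cell types, 1 to 4 of 6 for T and NK cells were above the floor (summed signal 2883 to 3281, nearly all from NKG7), 1 or 2 of 4 for B cells (131 to 148), 1 or 2 of 4 for red cells and platelets (76.3 to 105), 1 of 5 for epithelium (59.4 to 109.9) and 3 or 4 of 6 for fibroblasts and endothelium (864 to 964). PECAM1 gave most of the fibroblast and endothelial signal, at 648 to 810. The myeloid marker FCGR1A was below the floor on all 4 arrays, and ITGAX, another, was above it only with ultrasound only, at 24.9. Of the markers of other cell types, CD3D, CD79B, PPBP, EPCAM, KRT18, CDH1 and VWF were below the floor on all 4 arrays. The 3' to 5' signal ratio, a measure of RNA integrity, was 1.16 to 1.20 for ACTB and 0.946 to 1.01 for GAPDH.

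The start regions of 5 members that the results below come back to are shown here because they differ in 2 short motifs named after known regulators of proteasome genes. Each is the stretch of 250 bases before the gene's start in RefSeq (GRCh38.p14), read 5' to 3' on the gene's strand. Capitals mark matches on either strand to TGACNNNGC, the core of the antioxidant response element, or to GAAANNGAA, a short core of the interferon response element.
PSMB9 (chr6:32853942-32854191, plus strand): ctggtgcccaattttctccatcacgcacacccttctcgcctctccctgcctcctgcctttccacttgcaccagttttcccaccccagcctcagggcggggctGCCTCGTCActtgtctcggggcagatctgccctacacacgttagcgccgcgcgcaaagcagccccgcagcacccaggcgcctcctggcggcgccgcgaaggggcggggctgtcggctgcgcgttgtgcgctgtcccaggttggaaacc
PSMB10 (chr16:67936851-67937100, minus strand): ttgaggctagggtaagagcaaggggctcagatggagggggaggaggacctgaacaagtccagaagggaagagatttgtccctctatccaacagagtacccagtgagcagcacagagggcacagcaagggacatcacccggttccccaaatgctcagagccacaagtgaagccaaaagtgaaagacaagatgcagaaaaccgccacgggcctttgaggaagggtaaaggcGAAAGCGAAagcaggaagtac
PSMD3 (chr17:39980557-39980806, plus strand): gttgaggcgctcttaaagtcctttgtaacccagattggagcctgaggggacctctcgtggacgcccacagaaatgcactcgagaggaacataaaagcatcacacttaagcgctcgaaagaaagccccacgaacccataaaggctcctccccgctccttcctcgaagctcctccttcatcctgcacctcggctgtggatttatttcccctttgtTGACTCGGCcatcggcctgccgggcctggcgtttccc
PSME1 (chr14:24135944-24136193, plus strand): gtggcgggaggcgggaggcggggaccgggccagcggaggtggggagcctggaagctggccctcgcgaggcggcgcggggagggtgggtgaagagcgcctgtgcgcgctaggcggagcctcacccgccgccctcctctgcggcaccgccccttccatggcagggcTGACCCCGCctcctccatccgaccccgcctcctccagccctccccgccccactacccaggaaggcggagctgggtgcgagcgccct
PSMG4 (chr6:3258697-3258946, plus strand): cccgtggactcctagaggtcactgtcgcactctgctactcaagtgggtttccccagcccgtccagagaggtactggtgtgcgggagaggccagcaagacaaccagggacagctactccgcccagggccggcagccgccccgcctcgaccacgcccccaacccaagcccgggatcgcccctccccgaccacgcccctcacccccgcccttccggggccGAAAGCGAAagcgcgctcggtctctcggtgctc
PSMB9, PSMD3 and PSME1 each hold 1 match to TGACNNNGC, and PSMB10 and PSMG4 each hold 1 match to GAAANNGAA. No base in the 5 regions belongs to both motifs.

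RefSeq start regions were listed for 36 of the 42 genes. TGACNNNGC was found for 11 of the 36 (30.6%), against 13.2% of all 27305 genes with a listed start region and 14.7% of the 15842 protein-coding ones. The 11 were PSMA4, PSMB3, PSMB9, PSMD3, PSMD5, PSMD9, PSMD12, PSME1, PSME4, PSMG1 and PSMG2, so they came from the core, the cap, the activators and the chaperones. CCGGAAG, the core bound by ETS factors, was found for 10 of 36 (27.8%), against 10.2% of all genes and 14.0% of coding genes, and CCAAT for 16 of 36 (44.4%), against 37.0% and 40.2%. GAAANNGAA was found for 4 (PSMA4, PSMB4, PSMB10 and PSMG4; 11.1%), close to the 8.41% of all genes and 7.96% of coding genes. GAANNTTC, the core of the heat shock element, was found for 0 of 36, against 7.05% of all genes and 6.46% of coding genes. A match is a run of letters and not a measured binding site.

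None of the 41 measured genes differed 2-fold between any of the arrays. The largest ratio of the highest to the lowest of the 4 signals was 1.51 (PSMD3) and the median over the 41 genes was 1.12. On the log2 scale this ratio was under 0.32, the lower of the 2 thresholds used below, for 37 of 41 genes (90.2%), against 74.2% of the 4566 genes with a mean signal of 500 or more, the range of signal in which all 41 lay, and the ratio was under 1.1 for 16 of 41 (39.0%), against 17.9%. The mean signals of the 41 ran from 513 (PSMB9) to 12138 (PSMA4). The genes at 500 or more were not matched to them in signal within that range. Whether brightness alone gives the narrower spread of the 41 was therefore not tested, here or below. The 4 genes past the lower threshold were PSMB6, PSMD3, PSME3 and PSMG4. Each signal comes from the RNA of a whole culture, so fewer cells with a transcript and less of it per cell cannot be told apart.

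In the combination against control, 0 of 41 genes were 2-fold higher and 0 were 2-fold lower. Among all 12962 genes measured in that comparison 1.39% were 2-fold higher and 0.872% 2-fold lower, and among the genes with a signal of 500 or more 0.548% and 0.0438%. Past a log2 difference of 0.32, 0 proteasome genes were higher (14.9% of all genes, 4.45% of those at 500 or more) and 1, PSMG4, was lower (13.0% and 4.47%). The median log2 difference of the 41 genes was -0.03, beside 0.00 over all measured genes and -0.01 over those at 500 or more. The differences ran from -0.34 (PSMG4) to 0.27 (PSME1), and their standard deviation over genes was 0.14, against 0.38 over all measured genes and 0.23 over those at 500 or more.

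With ultrasound only against control, 0 of 41 genes passed 2-fold (1.65% of all genes were higher and 0.721% lower, and 0.482% and 0.00% of those at 500 or more). Past log2 0.32, 0 were higher (16.8% of all genes, 5.28% of those at 500 or more) and 0 were lower (12.3% and 5.28%). The median log2 difference was 0.04, beside 0.02 over all genes, with a range from -0.28 (PSMC6) to 0.26 (PSMB7). With Sonazoid only against control, again 0 of 41 passed 2-fold (0.652% of all genes were higher and 0.715% lower), and of the genes at 500 or more 0.00% passed it either way. Past log2 0.32, 0 were higher (10.9%; 1.64% of the genes at 500 or more) and 1, PSMD3, was lower (10.7%; 1.66% of the genes at 500 or more), and the median was -0.04, beside 0.00 over all genes. These comparisons all use the same control array, so they are given side by side and are not independent of each other.

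**Figure D1:**
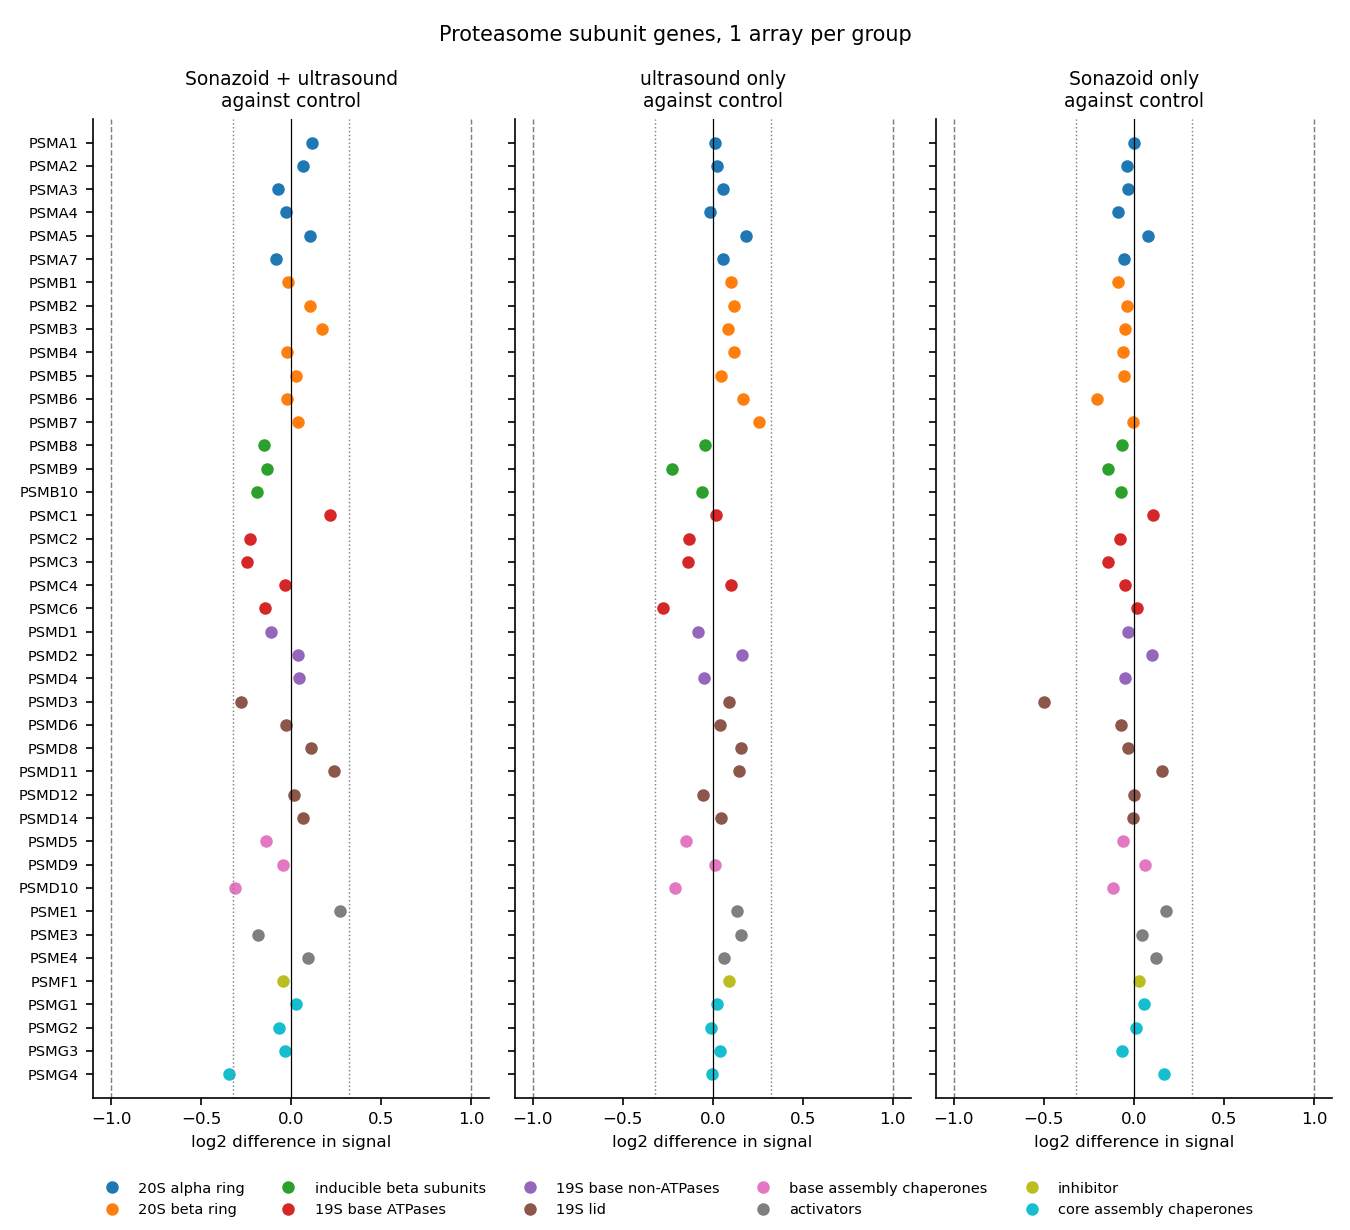
Log2 difference in signal from control for the 41 measured proteasome genes (rows, coloured by role) in the combination, with ultrasound only and with Sonazoid only, 1 array per group. Dotted lines mark a log2 difference of 0.32 and dashed lines 2-fold. No point reaches a dashed line, and only PSMG4 in the combination and PSMD3 with Sonazoid only lie beyond a dotted one.

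In the alpha ring of the core, whose tails gate the channel, the 6 measured genes lay within 1.1-fold of control in the combination. PSMA4 had signals of 12172 in the combination, 12286 with ultrasound only, 11677 with Sonazoid only and 12416 in control, so the highest array stood 1.06-fold above the lowest. PSMA5, the member with the widest range, had 3726, 3948 and 3655 in the same order of treatments, against 3466 in control. Its control signal was the lowest of the 4 and that with ultrasound only 1.14-fold above it. PSMA1, the member farthest from 0 in the combination, stood at 5754, 5367 and 5321, against 5323 in control, with a log2 difference of 0.11 in the combination. PSMA7 had 5057, 5581 and 5164, against 5371 in control, and PSMA2 and PSMA3 had ratios of highest to lowest array of 1.07 and 1.09.

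The beta ring of the core holds the cutting subunits PSMB5, PSMB6 and PSMB7 and 4 structural ones. PSMB5, with chymotrypsin-like activity, had signals of 2485 in the combination, 2515 with ultrasound only, 2349 with Sonazoid only and 2439 in control. PSMB6, with caspase-like activity, had 3351, 3836 and 2961, against 3408 in control. PSMB7, with trypsin-like activity, had 7348, 8567 and 7132, against 7171 in control. PSMB7 therefore stood apart on the ultrasound only array, by 0.26 on the log2 scale above control, while a dim second probe set of PSMB7 gave -0.40 there. PSMB6 was lowest with Sonazoid only, 1.15-fold below control.

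Among the 4 structural beta subunits, PSMB1 had 10511, 11435 and 10008, against 10662 in control. PSMB3, the beta ring gene farthest from 0 in the combination, had 8790, 8303 and 7567, against 7822 in control. All 7 beta ring genes were above 0 with ultrasound only against control (log2 0.04 to 0.26) and all 7 in the combination against Sonazoid only (0.04 to 0.22), 2 comparisons that share no array. Among the 4566 genes with a signal of 500 or more, 2313 were above 0 in the first, 2239 in the second and 1499 in both. With quantile normalisation all 7 were above 0 in the first and 4 of 7 in the second, and with the mean of a gene's probe sets 4 of 7 in each. With Sonazoid only against control all 7 were below 0 (log2 -0.20 to -0.01), as were 2327 of the 4566 genes. With the values as deposited, however, 6 of the 7 were above 0.

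The inducible subunits PSMB8, PSMB9 and PSMB10 replace PSMB5, PSMB6 and PSMB7 in the immunoproteasome. PSMB8 had signals of 2684 in the combination, 2886 with ultrasound only, 2844 with Sonazoid only and 2978 in control. PSMB9 had 509.5, 477 and 506, against 559 in control. PSMB10 had 845, 925 and 917, against 965 in control. For all 3 genes the control array gave the highest signal of the 4, with ratios of highest to lowest of 1.11, 1.17 and 1.14. Their log2 differences in the combination were -0.15, -0.13 and -0.19, and those of their constitutive counterparts were 0.03, -0.02 and 0.04. With the values as deposited, where the median of all genes in the combination against control was 0.16 in place of 0.00, 2 of the 3 inducible genes were above 0 in the combination and with Sonazoid only. In ultrasound only against control all 3 were below 0 with the values as deposited and with quantile normalisation too. PSMB10 carries the interferon response element core printed above, and PSMB9 the antioxidant one. A link between these motifs and the signals was not tested.

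The ATPases of the 19S base form the motor ring that unfolds the substrate. PSMC2, an ATPase of that ring, had signals of 5706 in the combination, 6117 with ultrasound only, 6355 with Sonazoid only and 6695 in control. PSMC3, the ATPase farthest from 0 in the combination, had 1272, 1370 and 1364, against 1508 in control. PSMC1 had 4430, 3869 and 4112, against 3819 in control. On these brightest probe sets control was the highest array for PSMC2 and PSMC3 and the lowest for PSMC1. The other probe sets of PSMC2 went the opposite way in the combination, with log2 differences of 0.05 and 0.33 beside -0.23, so PSMC2 had no direction common to its probe sets. PSMC6 was 1.21-fold lower than control with ultrasound only, and PSMC4 had a ratio of highest to lowest array of 1.11. The median log2 difference of the 5 genes in the combination was -0.15, with 4 of 5 below 0, and 0.03, with 2 of 5 below 0, with the values as deposited.

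Of the base subunits without ATPase activity, PSMD4, a receptor for ubiquitin chains, had signals of 4122 in the combination, 3882 with ultrasound only, 3866 with Sonazoid only and 4007 in control. PSMD2, the scaffold that docks ubiquitin-like shuttle proteins, had 2022, 2204 and 2113, against 1969 in control. PSMD1, the other large scaffold, had 2393, 2448 and 2536, against 2592 in control. Each of these 3 genes lay within 1.1-fold of control in the combination. With ultrasound only against control the brightest probe sets of PSMD4 and PSMD1 had log2 -0.05 and -0.08. Other bright probe sets went the opposite way there, with 0.23 and 0.14 for PSMD4 and 0.14 for PSMD1.

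The lid holds PSMD14, the metalloprotease that cuts ubiquitin chains off the substrate. PSMD14 had signals of 7099 in the combination, 7018 with ultrasound only, 6747 with Sonazoid only and 6784 in control, a ratio of highest to lowest of 1.05. PSMD6, another lid scaffold, had 7437, 7814 and 7230, against 7604 in control. PSMD11, a lid subunit whose level is known to limit assembly of the complete proteasome, had 4237, 3970 and 3994, against 3592 in control. PSMD11 was lowest in control and 1.18-fold above it in the combination, a difference of 0.24 on the log2 scale. Its dimmer probe set was highest in control and had -0.05 in the combination. PSMD8 and PSMD12 had ratios of highest to lowest of 1.14 and 1.05.

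PSMD3, a scaffold subunit of the lid, was the gene that varied most over the 4 arrays. Its signals were 1078 in the combination, 1395 with ultrasound only, 925 with Sonazoid only and 1310 in control. Both arrays with Sonazoid were lower than both arrays without it. It was 1.42-fold lower with Sonazoid only than in control and 1.29-fold lower in the combination than with ultrasound only (log2 -0.50 and -0.37), 2 comparisons that share no array. It was the 1 of 41 proteasome genes lower by log2 0.32 or more in both, and 0 were higher in both. Among all 12061 genes measured in both 3.05% were lower in both and 2.38% higher, and among the genes with a signal of 500 or more 0.307% and 0.219%. With the values as deposited the second difference was -0.16, which does not reach that threshold. PSMD3 rests on 1 probe set, so no other probe set of it was available for comparison. It was 1.06-fold higher with ultrasound only than in control and 1.16-fold higher in the combination than with Sonazoid only.

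The chaperones PSMD5, PSMD9 and PSMD10 hold the base ATPases during assembly and leave before the proteasome is complete. PSMD10, also known as gankyrin, had signals of 3110 in the combination, 3337 with ultrasound only, 3557 with Sonazoid only and 3858 in control on its brightest probe set. Its other probe set gave 2957, 2568 and 2611, against 2322 in control. The array order was nearly reversed between them, with log2 differences of -0.31 and 0.35 in the combination against control, so PSMD10 had no direction common to its probe sets. PSMD5 had 720, 716 and 761, against 794 in control. PSMD9 differed by at most 1.07-fold between arrays.

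Among the activators, PSME1, a subunit of the interferon-inducible PA28 ring, had signals of 1868 in the combination, 1705 with ultrasound only, 1753 with Sonazoid only and 1551 in control. Control was the lowest array, and the combination stood above it by 0.27 on the log2 scale, the largest positive difference among the 41 genes. PSME3, which forms the nuclear PA28 gamma ring, had 1283, 1625 and 1503, against 1459 in control. It was lowest in the combination, 1.27-fold below ultrasound only, 1.17-fold below Sonazoid only and 1.14-fold below control. With the values as deposited the difference from ultrasound only was -0.12 on the log2 scale in place of -0.34. The 3 other probe sets of PSME3 were also lowest in the combination on the scaled signal, but with the values as deposited only 2 of the 4 probe sets were. The 3 had scaled log2 differences against ultrasound only of -0.83, -0.19 and -0.05 beside -0.34 for the brightest. PSME4, which encodes the PA200 activator, had 1324, 1298 and 1350, against 1241 in control. With ultrasound only and with Sonazoid only the brightest probe sets of all 3 activators were above control, by log2 0.04 to 0.18. They stayed above 0 with the values as deposited and with quantile normalisation. A dimmer probe set of PSME4 went the opposite way, at log2 -0.22 with ultrasound only and -0.13 with Sonazoid only, while another had 0.17 and 0.42. The dimmest of PSME3 had -0.02 with Sonazoid only, and the remaining ones of PSME3 were above 0 in both comparisons. PSMF1, which encodes the inhibitor PI31, had log2 differences from control of -0.05 in the combination, 0.09 with ultrasound only and 0.03 with Sonazoid only.

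The chaperones PSMG1 to PSMG4 assemble the alpha ring of the core in pairs. PSMG1 had signals of 6882 in the combination, 6851 with ultrasound only, 7024 with Sonazoid only and 6747 in control, a ratio of highest to lowest of 1.04, the smallest of the 41 genes. PSMG2 and PSMG3 had ratios of 1.06 and 1.08. PSMG4 had 1218, 1543 and 1731, against 1545 in control. It was lowest in the combination, 1.27-fold below control, 1.27-fold below ultrasound only and 1.42-fold below Sonazoid only. A dim second probe set of PSMG4 that was also above the floor on every array gave 36.1, 32.6 and 33.7, against 24.8 in control, so it was highest in the combination. The lower signal of PSMG4 thus rests on its brightest probe set alone. The start region of PSMG4 printed above holds the interferon response element core, and a link between motif and signal was not tested.

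**Figure D2:**
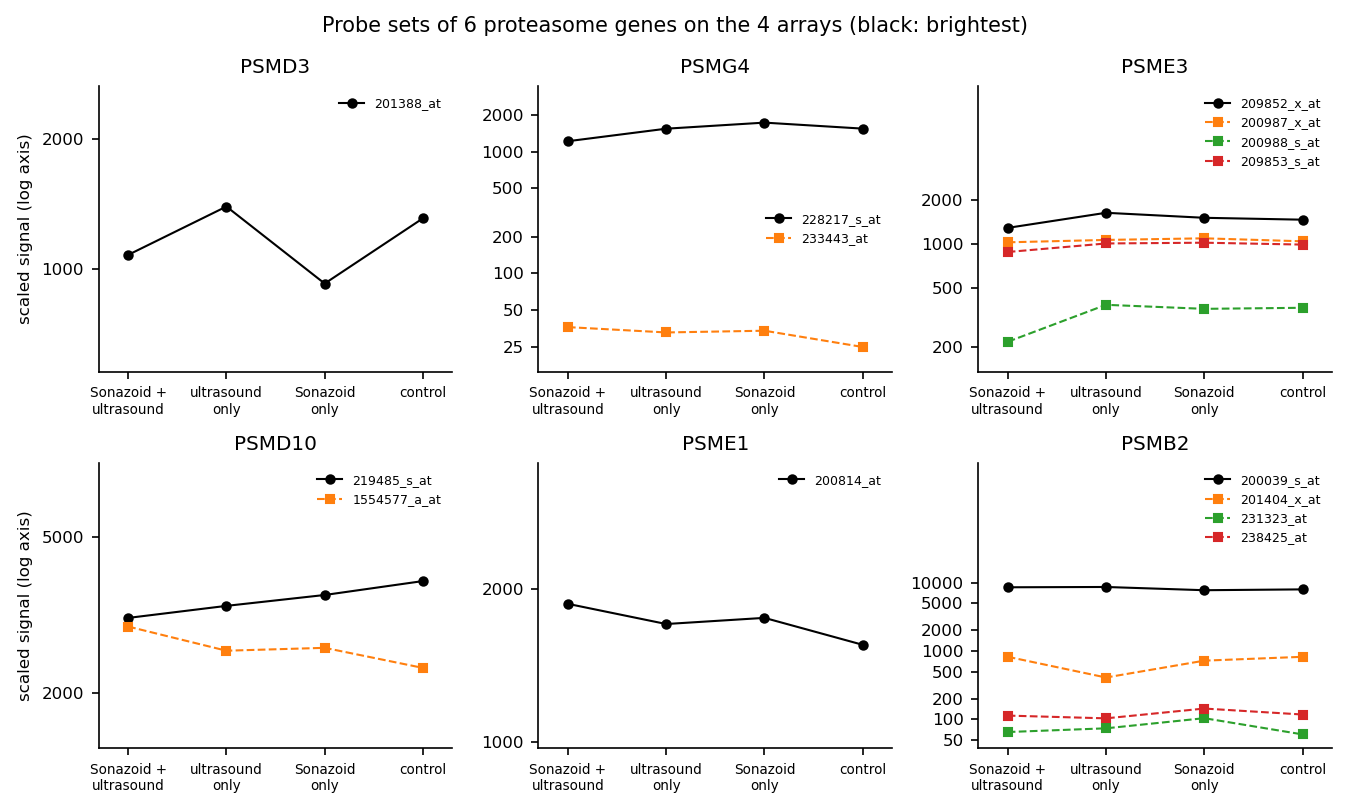
Scaled signal (log axis) on the 4 arrays for each probe set, above the floor on all 4, of 6 proteasome genes; black circles are the brightest probe set and coloured squares the others. PSMD3 is lower on both arrays with Sonazoid, the probe sets of PSMD10 run in opposite directions, and all 4 probe sets of PSME3 are lowest in the combination on this scale, against 2 of the 4 with the values as deposited.

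With no replicate arrays, only the agreement between probe sets of a gene could be examined. They read the same RNA on the same array, so their gaps do not measure the spread between cultures or arrays. Of the 81 probe sets of the 42 genes, 72 were above the floor on all 4 arrays, and 20 genes had 2 or more of these. In the combination against control the largest and smallest log2 difference of a gene's probe sets lay 0.21 apart in the median, and 0.09 apart for the 13 genes with 2 or more probe sets at a mean signal of 500 or more. All probe sets of a gene had the same sign for 8 of the 20 genes, and for 0 of them were all past log2 0.32. In the same comparison 27 of the 41 genes (65.9%) lay within 1.1-fold of control, against 40.3% of all measured genes and 57.8% of those at 500 or more. The widest among bright probe sets was for PSMB2, whose brightest probe set had a log2 difference of 0.12 with ultrasound only, while another gave -1.01, with signals of 823 in the combination, 408 with ultrasound only, 722 with Sonazoid only and 822 in control.

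Ultrasound and Sonazoid can each be read from pairs of arrays that share none. For ultrasound, 29 of 41 genes had the same sign in ultrasound only against control and in the combination against Sonazoid only (19 higher and 10 lower in both), against 66.0% of the genes with a signal of 500 or more. None of the 41 passed log2 0.32 the same way in both, where 5.00% of all genes were higher and 3.06% lower in both, and 1.93% and 1.23% of those at 500 or more. Across the 41 genes the differences of the 2 pairs had a Pearson r of 0.42 and a Spearman rho of 0.49, and across the 4566 genes 0.61 and 0.44. For Sonazoid, 26 of 41 genes had the same sign in its 2 pairs (6 higher and 20 lower in both), against 60.9% of the genes at 500 or more, with a Pearson r of 0.36 and a Spearman rho of 0.29, against 0.27 and 0.29. The direction of the Sonazoid signs turned with the scaling: 33 genes were higher and 1 lower in both pairs with the values as deposited, and 11 and 16 with quantile normalisation. For ultrasound 19 were higher and 10 lower with the values as deposited, and 12 and 14 with quantile normalisation. Genes are not independent replicates, and the probe sets share each array's processing.

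**Figure D3:**
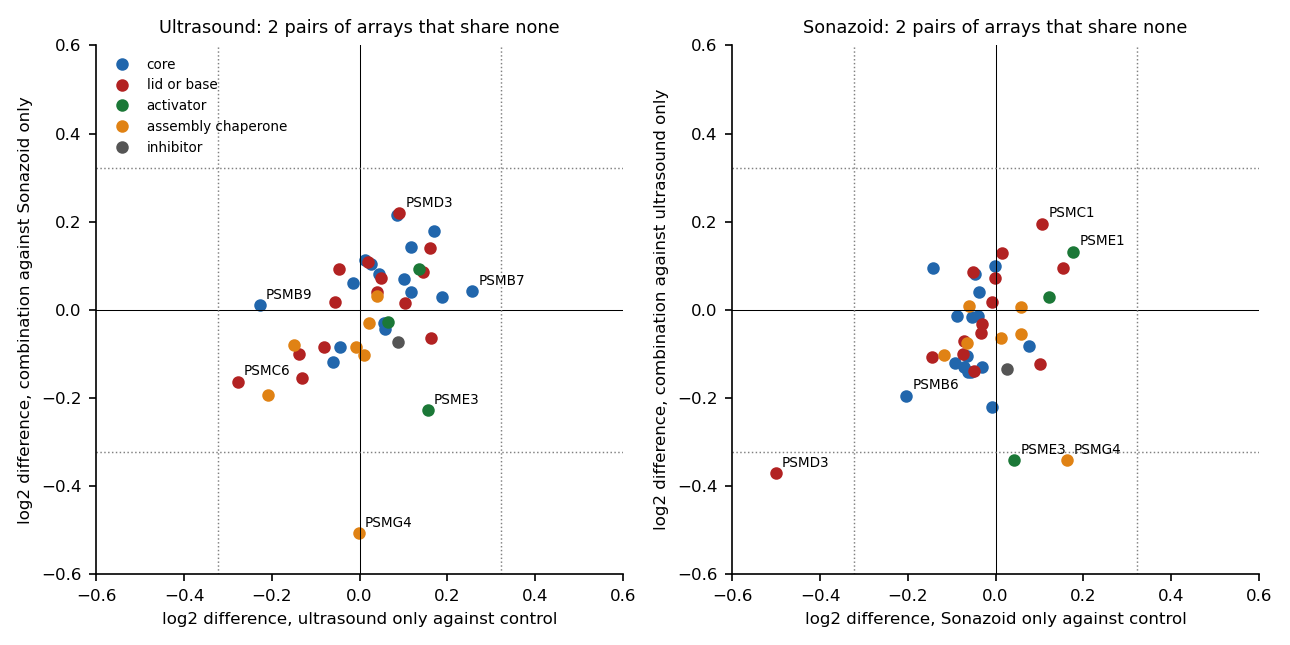
Log2 differences of the 41 proteasome genes in 2 comparisons that share no array, for ultrasound (left) and Sonazoid (right), coloured by class; dotted lines mark a log2 difference of 0.32. No gene lies beyond the dotted lines in both comparisons of the ultrasound panel, and PSMD3 alone does so in the Sonazoid panel, at -0.50 and -0.37.

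In the combination against ultrasound only, 0 of 41 genes passed 2-fold (0.700% of all genes were higher and 1.16% lower), and of the genes at 500 or more 0.00% were higher and 0.00% lower. Past log2 0.32, 0 were higher (12.3%; 2.85% of those at 500 or more) and 3 were lower (16.0%; 4.60% of those at 500 or more), namely PSMD3, PSME3 and PSMG4. The median log2 difference was -0.06, beside -0.01 over all genes. In the combination against Sonazoid only, 0 of 41 passed 2-fold (1.46% higher, 0.711% lower), 0 were higher past log2 0.32 (14.1%; 3.61% of those at 500 or more) and 1, PSMG4, was lower (12.7%; 3.83%). Of the genes at 500 or more, 0.438% were 2-fold higher and 0.0219% 2-fold lower in that comparison. The departure from additivity is what remains when the ultrasound difference without Sonazoid is subtracted from that with it, in log2. It passed 0.32 either way for 2 of 41 genes, PSMG4 (-0.51) and PSME3 (-0.38), against 34.3% of all genes and 9.99% of those at 500 or more. Neither call held under every alternative: PSME3 had -0.26 with the values as deposited, and PSMG4 had -0.28 with the mean of its probe sets and -0.30 with the gene-specific one. The median of the departure was -0.02 over the 41 genes and -0.02 over all genes.

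Genes that work with the proteasome were set beside the subunits as 4 lists. Of 14 partners of the proteasome, 0 passed 2-fold in the combination against control. Of all genes 1.39% were higher and 0.872% lower, and of those at 500 or more 0.548% and 0.0438%. All 14 partners had signals above 500 on every array. Past log2 0.32, 0 partners were higher (14.9% of all genes, 4.45% of those at 500 or more). In the other direction 1 was lower (13.0% and 4.47%), FBXO7, which binds the inhibitor PI31. The median of the list was 0.01. The cap subunits outside the rule of symbols, ADRM1 and SEM1, had log2 differences of -0.07 and 0.23, and POMP, the maturation factor of the core, 0.05. SEM1 had signals of 5712 in the combination, 6500 with ultrasound only, 5237 with Sonazoid only and 4875 in control, so it was lowest in control. FBXO7 had 1368, 1660 and 1329, against 1776 in control, and its other bright probe set differed less, by -0.10 on the log2 scale in the combination. The brightest probe set of ZFAND5, another partner, had log2 0.25 in the combination and 0.26 with ultrasound only. A second bright one passed the threshold, at 0.40 in both, and had -0.00087 with Sonazoid only. Dim ones of ZFAND5 had 0.48 and 0.57 in the combination, and 0.48 and -0.09 with ultrasound only.

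Of 9 genes that control subunit expression, 0 passed 2-fold in the combination against control, while 1 was higher and 2 were lower past log2 0.32, with a list median of -0.23, beside 14.9% of all genes higher and 13.0% lower. Of the genes at 500 or more 4.45% were higher and 4.47% lower, but MAFF, HSF1 and NFE2L3 lay below 500. With the values as deposited 2 genes of the list were higher, of which MAFF passed 2-fold. None was lower, with HSF1 at -0.29 and NFE2L3 at -0.28. NFE2L1, the factor named above, had signals of 610 in the combination, 783 with ultrasound only, 600 with Sonazoid only and 688 in control, a log2 difference of -0.17 in the combination. Its other probe sets gave 0.17 and -0.27. MAFF, a small MAF protein that pairs with such factors, had 202, 172 and 143, against 108 in control, 1.87-fold higher in the combination. Its other probe set went the opposite way (log2 -0.52). HSF1, the master regulator of the heat shock response, had 278, 316 and 241, against 383 in control, so it was highest in control. The dimmer probe set of HSF1 was also highest in control, with a log2 difference of -1.17 in the combination. The second gene lower past that threshold was NFE2L3, a relative of NFE2L1, at 136, 159 and 187, against 185 in control.

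The 14 ubiquitin and shuttle genes had a list median of -0.06 in the combination against control. Of them, 1 was 2-fold higher (1.39% of all genes, 0.548% of those at 500 or more) and 0 were 2-fold lower (0.872% and 0.0438%). The gene was ZFAND2A, also known as AIRAP, a stress-induced protein that binds the 19S cap. It had signals of 963 in the combination, 920 with ultrasound only, 487 with Sonazoid only and 424 in control. Both arrays with ultrasound were above both arrays without it, 2.27-fold and 2.17-fold above control, and the combination was 1.98-fold above Sonazoid only. ZFAND2A rests on 1 probe set. UBA1, the main enzyme that activates ubiquitin, had 2866, 4279 and 2993, against 3088 in control, and so was high with ultrasound only, while UBA6, the other such enzyme, had 420, 380 and 489, against 511 in control. The list also holds genes with a mean signal below 500, UBA6 among them. With ultrasound only 3 genes of this list were higher past log2 0.32 (16.8% of all genes, 5.28% of those at 500 or more). They were ZFAND2A, UBA1 and NPLOC4, a cofactor of the VCP unfoldase (0.36). In the same comparison 2 were lower (12.3% and 5.28%), UBA6 and UBQLN2, a shuttle protein (-0.39). The dimmer probe set of UBA1 went the opposite way there (log2 -0.58). Of the dimmer ones of UBA6 above the floor on all 4 arrays, 1 had 0.14 and the others -0.28 and -0.34.

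Of 9 genes of antigen processing, where the immunoproteasome acts, 0 passed 2-fold in the combination against control (1.39% of all genes higher, 0.872% lower). Past log2 0.32, 0 were higher (14.9%, and 4.45% of the genes at 500 or more) and 0 were lower (13.0% and 4.47%). The list median was 0.02, and IRF1 and NLRC5 were among its genes below 500. The brightest probe set of IRF1, an interferon-induced transcription factor, had a log2 difference of 0.02, while its other probe set had signals of 99.8 in the combination, 109.6 with ultrasound only, 59.6 with Sonazoid only and 45.1 in control. That dimmer probe set was past 2-fold, at log2 1.15 in the combination and 1.28 with ultrasound only. The gene farthest from 0 was NLRC5, a transactivator of class I genes, which had signals of 132 in the combination, 135 with ultrasound only and 164 in control, and a log2 difference of -0.31 with Sonazoid only. TAPBP, which loads peptides onto class I molecules, had 790, 1018 and 658, against 708 in control, and was 1.44-fold higher with ultrasound only, while its other probe set that was above the floor on all 4 arrays had a log2 difference of -0.34 there. ERAP1, which trims peptides, was lower with ultrasound only on its brightest probe set (log2 -0.36). Of its dimmer ones above the floor on all 4 arrays, 1 had -0.42 there and another 0.08. HLA-F, a class I molecule, was lower with Sonazoid only (log2 -0.49). TAP1, the peptide transporter encoded beside PSMB8 and PSMB9, had a log2 difference of 0.15 in the combination, where PSMB8 and PSMB9 had -0.15 and -0.13.

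**Figure D4:**
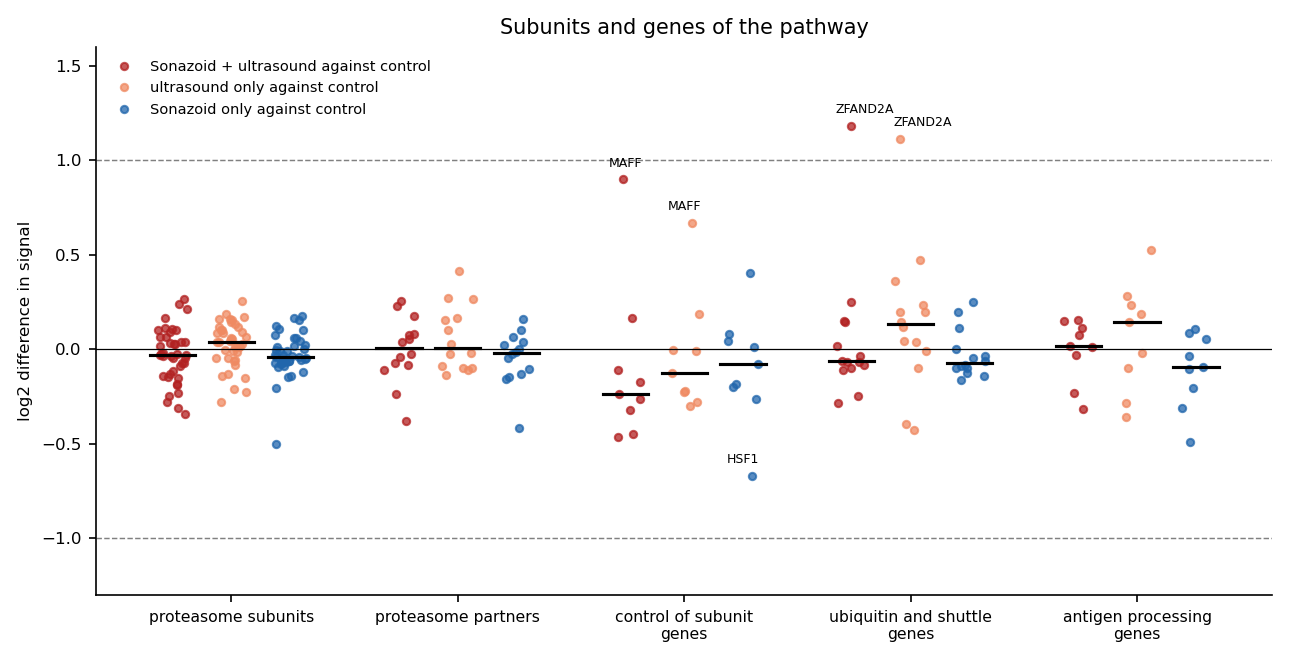
Log2 difference in signal from control for the proteasome subunits and 4 lists of related genes (columns) in the combination, with ultrasound only and with Sonazoid only; each point is a gene, black bars are medians, and dashed lines mark 2-fold. ZFAND2A, at 1.18 and 1.12, is the 1 gene beyond a dashed line, and the medians of the subunits lie between -0.04 and 0.04.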

How the data were processed

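Per the labels, RNA of U937 cells was hybridised to Affymetrix Human Genome U133 Plus 2.0 arrays. The authors deposited a linear intensity for each probe set on each array (0.0486 to 21728). How probes were summarised, and whether arrays were scaled, no source used here states.

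Trimmed means (2% removed at each end) differed 1.16-fold, above a limit of 1.1, so each array was multiplied to the common trimmed mean, by 0.923 for the combination, 1.07 for ultrasound only, 0.977 for Sonazoid only and 1.04 for control. The median over all scaled values (23.8) served as a floor and log2 was taken. Symbols came from the platform annotation, updated with RefSeq (GRCh38.p14); of 54675 probe sets, those with 1 symbol were used, and the brightest by mean scaled signal stood for its gene. A gene counted in a comparison if above the floor on either array. The steps were tested on simulated data. Values on all 4 arrays are given for the brightest, the dimmest and the most different measured gene of each role, for genes past log2 0.32 against control, and for the inducible subunits, their counterparts and PSME1; others were chosen after their values were seen. Of the pathway genes, the rule gave those past log2 0.32 in the combination against control and the one farthest from 0 in each list; the others named were chosen after their values were seen. The members and all lists were chosen with earlier results of these data known, and the background of genes at 500 or more and the Sonazoid count over pairs after seeing the data. The interferon motif was shortened after a first search with a longer form. Python 3.11.15 with pandas 2.3.3 was used.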

Additional observations from a re-analysis of the deposited data

How the results depend on the processing

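No proteasome gene passed 2-fold in any comparison under any of the 6 alternatives tried: values as deposited, quantile normalisation, a floor of 100 or of 10, the mean of a gene's probe sets, and gene-specific probe sets (neither _s_at nor _x_at). Quantile normalisation and the floor of 100 moved no count of these genes past 2-fold or log2 0.32 in the 5 comparisons, and no median by over 0.1. Quantile normalisation did move the number above 0, to 20 of 41 in Sonazoid only against control and 16 in the combination against Sonazoid only, where it was 13 and 23 with the trimmed mean. With the values as deposited the median log2 difference of the subunits was 0.15 in the combination against control, where that of all genes was 0.16, and 0.15 against ultrasound only, where that of all genes was 0.19, and the median departure from additivity was 0.11. The counts past log2 0.32 were then 4 higher and 0 lower against control, 3 higher and 0 lower against ultrasound only, and 0 lower in both Sonazoid pairs. With the floor of 10, which lets PSMA8 in, 2 were lower with Sonazoid only than in control and 1 was higher in the combination than with Sonazoid only. With the mean of probe sets, 0 were lower in the combination than in control, and 1 was higher and 2 were lower with Sonazoid only. With gene-specific probe sets, which 30 measured genes had, 2 were higher in the combination, 1 with ultrasound only and 1 with Sonazoid only than in control, and 1 was lower in the combination than with ultrasound only. The share of all genes past log2 0.32 was not computed under the alternatives, so these counts cannot be set against one. PSMG4 turned to 0.066 in the combination against control with the mean of probe sets, and with gene-specific ones to 0.54 against control, 0.15 against ultrasound only and 0.098 against Sonazoid only. FBXO7 turned to 0.0029 with the mean of probe sets. Over all genes, 180 were 2-fold higher and 113 lower in the combination than in control, against 301 and 73 with the values as deposited, 49 and 13 with the floor of 100 and 920 and 774 with that of 10. Against ultrasound only these were 92 and 152, against 221 and 85, 3 and 2, and 818 and 933. No paired analysis was possible because each group has 1 array. With 1 array a group, differences of the size seen here cannot be set against the spread between cultures.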

Other observations

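Probe sets dimmer than the brightest of their gene gave further values. A probe set of PSMF1 had signals of 117 in the combination, 62.4 with ultrasound only, 79.2 with Sonazoid only and 108 in control, while the brightest one of that gene lay within 0.09 of control on the log2 scale on every array. A probe set of PSME3 had 216 in the combination, 385 with ultrasound only, 362 with Sonazoid only and 368 in control, so the array with both treatments stood apart from the other 3. Over the 20 genes with 2 or more probe sets above the floor, the widest gap between the log2 differences of a gene's probe sets was 0.89 in the combination against control, 1.31 with ultrasound only and 0.98 with Sonazoid only.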
